A study of Rattus norvegicus with 12 samples.

Results

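The NR4A receptors and the retinoid X receptors (RXR) were examined in RNA sequencing data of adult rat ventricular myocytes (ARVMs), the contractile cells of the lower chambers of the heart. The members were the NR4A genes Nr4a1, Nr4a2, and Nr4a3 and the RXR genes Rxra, Rxrb, and Rxrg, picked by gene symbol. They made up 6 of 17301 genes and 6 of 18752 transcripts, since each was listed with a single transcript. The ARVMs came from adult Sprague Dawley rats and were cultured on laminin with butanedione monoxime, which inhibits contraction, in the medium of both groups. Ad-GFP samples had been transduced with an adenovirus encoding enhanced green fluorescent protein. Ad-h-NR4A2 samples had been transduced with an adenovirus that carries human NR4A2 cDNA behind the cytomegalovirus promoter, a strong viral promoter that is not specific to cardiomyocytes. Both viruses were given at a multiplicity of infection (infectious virus per cell) of 50, and RNA was collected 48 h afterward. Each group held 6 samples, numbered 24 to 29 in both, from 6 experiments with cells of different rats. Samples without virus were not used here.

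NR4A receptors are nuclear receptors that are called orphan because no endogenous ligand is firmly established, and their activity depends largely on how much of them is made. They are immediate early genes, switched on within minutes to hours by cAMP, calcium, growth factors, and stress, also by β-adrenergic stimulation in the heart. They bind DNA as monomers or as dimers of their own family, and Nr4a1 and Nr4a2, but not Nr4a3, can also pair with an RXR, a receptor for the vitamin A derivative 9-cis-retinoic acid. RXR are at the same time the common partners of retinoic acid receptors, thyroid hormone receptors, peroxisome proliferator-activated receptors, liver X receptors, and the vitamin D receptor.

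Values are FPKM, the fragments on a transcript scaled to its length and to all mapped fragments, as calculated by the authors. Because FPKM is scaled by length, levels of different genes can be set side by side. An exception is Nr4a2 in Ad-h-NR4A2 samples, where human transgene fragments are scaled to the length of the rat transcript. The steps between low values implied a depth of 18700000 to 27900000 fragments in Ad-GFP samples and 21500000 to 27100000 fragments in Ad-h-NR4A2 samples (median 23650000 in both). Fragment numbers below were recovered from these steps and cover counting error only. Groups were compared without pairing in the tests below, except where replicate blocks are named, and same-numbered samples are called pairs only to give directions and ratios. The share of all genes that moved the same way in every pair, or whose groups did not overlap, is not given here. Such patterns are therefore descriptions of single genes. What the sample number means is not given in the labels. Across genes, the deviations from the group means had a mean correlation of 0.505 between same-numbered samples and -0.0998 between other samples. The second mean nearly follows from the first, because deviations cancel out within each group. The lowest correlation between same-numbered samples was 0.347, and the highest between other samples of the 2 groups was 0.189. Genes are not independent replicates.

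The label of the cells was compared with markers of 5 cell types. Of 8 cardiomyocyte markers, all were present, and their summed level was 34083 ± 2547 FPKM (SD, n = 6) in Ad-GFP and 28718 ± 2049 FPKM (SD, n = 6) in Ad-h-NR4A2 samples, with Myl2, a myosin light chain, the most abundant. The sums of the other lists were far lower, with 18.8 FPKM in Ad-GFP and 14.9 FPKM in Ad-h-NR4A2 samples for 8 fibroblast markers (most abundant Vim), 14.4 and 12.7 FPKM for 6 endothelial markers (Kdr), 16.2 and 14.4 FPKM for 6 smooth muscle and pericyte markers (Acta2), and 11.3 and 41.4 FPKM for 6 macrophage markers (Csf1r). The fibroblast marker Col1a2 was listed at 0 in all samples, and Cnn1 of smooth muscle and Cd163 and Ptprc of macrophages were listed at 0 in some.

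Some of these markers moved with the groups. The cardiomyocyte sum ranged from 29909 over a median of 34250 to 37211 FPKM in Ad-GFP and from 26572 over 28348 to 31535 FPKM in Ad-h-NR4A2 samples, and 6 of 6 pairs had less of it with Ad-h-NR4A2. Of its genes, 6 of 8 fell (Myh6, Myh7, Tnnt2, Myl2, Ryr2, and Pln), next to 21.7% of all genes tested, and Tnni3 and Actc1 did not pass. Myl2 no longer passed without Ad-GFP sample 25, 26, or 27 or Ad-h-NR4A2 sample 24 or 27 (limma with Benjamini-Hochberg adjustment, adjusted p 0.0518 to 0.0614), and Tnni3 (adjusted p = 0.119 by the same test) passed without Ad-GFP sample 28 (adjusted p = 0.0254). The macrophage sum rose through Csf1r, a cytokine receptor, from 10.1 ± 3.87 to 40.2 ± 2.35 FPKM (SD, n = 6), with sums from 6.43 over 11.1 to 17.6 FPKM in Ad-GFP and from 37.6 over 41.4 to 45.1 FPKM in Ad-h-NR4A2 samples. Cd68, at 0.463 and 0.482 FPKM, Adgre1, at 0.322 and 0.275 FPKM, and Mrc1, at 0.395 and 0.369 FPKM, did not pass the test. The fibroblast sum ranged from 9.22 over 17.4 to 30.7 FPKM in Ad-GFP and from 5.85 over 14.3 to 26.9 FPKM in Ad-h-NR4A2 samples, and of its 7 tested genes (Vim, Col1a1, Col3a1, Pdgfra, Dcn, Postn, and Tcf21) only Col3a1 fell, no longer past the threshold without Ad-GFP sample 25, 26, or 29 (adjusted p 0.0502 to 0.0556, limma with Benjamini-Hochberg adjustment), while Col1a1 (adjusted p = 0.0944) passed without Ad-GFP sample 27 or Ad-h-NR4A2 sample 25 (adjusted p 0.0362 to 0.0462). The endothelial sum ranged from 6.95 over 15.2 to 21.4 FPKM and from 5.90 over 13.5 to 20.7 FPKM, and none of its 6 genes (Pecam1, Cdh5, Kdr, Tek, Vwf, and Tie1) passed. The smooth muscle and pericyte sum ranged from 11.7 over 13.2 to 24.3 FPKM and from 8.78 over 13.2 to 21.0 FPKM, and of its 5 tested genes (Tagln, Acta2, Myh11, Rgs5, and Pdgfrb) only Myh11 fell. With sample numbers as blocks in the model, Tnni3, Col1a1, Pdgfra, and Kdr passed as well. What part these markers have in the values of the NR4A and RXR genes was not tested. In such bulk samples, fewer cells of a type and less RNA per cell cannot be told apart.

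To see which receptors ARVMs with the control virus held, the levels in Ad-GFP samples were ordered. Rxrg, the RXR known from muscle and heart, was highest with 45.7 ± 4.70 FPKM (SD, n = 6). Rxra, the most widely expressed RXR, had 29.5 ± 1.77 FPKM and Rxrb, a ubiquitous RXR, had 25.3 ± 3.62 FPKM (SD, n = 6), and their ranges overlapped (27.1 to 32.0 and 22.1 to 30.5 FPKM). All Rxrg values, from 40.5 FPKM upward, lay above all Rxra values. The NR4A genes followed far below, in an order whose neighbors did not overlap. Nr4a1 had 3.79 ± 0.663 FPKM, Nr4a2 had 0.884 ± 0.309 FPKM, and Nr4a3 had 0.329 ± 0.112 FPKM (SD, n = 6). Among the 10950 genes above 0 in all 12 samples, ordered from the highest mean in Ad-GFP samples, the ranks were 2175 for Rxrg, 3049 for Rxra, 3409 for Rxrb, 7562 for Nr4a1, 9021 for Nr4a2, and 9759 for Nr4a3.

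The members also differed in how far they varied among Ad-GFP samples. The SD was 6.01% of the mean for Rxra, 10.3% for Rxrg, 14.3% for Rxrb, and 17.5% for Nr4a1. It was 34.9% for Nr4a2 and 33.9% for Nr4a3, which rested on 33 to 92 and 16 to 49 fragments per sample. Rxra, Rxrb, and Rxrg rested on at least 494 fragments in every sample of either group, and Nr4a1 on 150 to 286 in Ad-GFP and 73 to 136 in Ad-h-NR4A2 samples.

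Nr4a2 corresponds to the human gene that was transduced. It lies on chromosome 3 of the rat genome Rn5 from 48183783 to 48189254. In the order of sample numbers 24 to 29, its FPKM was 0.641, 1.06, 0.626, 0.655, 1.40, and 0.919 in Ad-GFP and 455, 445, 589, 592, 581, and 485 in Ad-h-NR4A2 samples. Ad-h-NR4A2 samples 24, 25, and 29 were lower than samples 26, 27, and 28, and every one of them was far above the highest Ad-GFP sample, number 28. The ratio within pairs went from 415 in pair 28 to 941 in pair 26. These values count human transgene fragments only where they align to the rat transcript, and rat Nr4a2 RNA and transgene RNA cannot be told apart in them. The log2 fold change of FPKM + 0.1 was 9.10 with an SE of 0.17, at an adjusted p of 6.59e-13 (limma with Benjamini-Hochberg adjustment), higher in 6 of 6 pairs. Nr4a2 made up 17.6% of summed NR4A FPKM in Ad-GFP and 99.6% in Ad-h-NR4A2 samples.

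Nr4a1 (Nur77), the most abundant NR4A gene of Ad-GFP samples, was lower with Ad-h-NR4A2. It lies on chromosome 7 (140713169 to 140721072, Rn5). In sample order its FPKM was 3.92, 3.43, 4.02, 2.64, 4.50, and 4.22 in Ad-GFP and 1.71, 2.14, 2.09, 1.44, 2.06, and 2.13 in Ad-h-NR4A2 samples. Sample 27 was the lowest of both groups, and the highest Ad-h-NR4A2 value lay below the lowest Ad-GFP value. The mean went from 3.79 to 1.93 ± 0.289 FPKM (SD, n = 6), and the ratio within pairs ranged from 0.437 (pair 24) to 0.623 (pair 25), lower in 6 of 6 pairs. On the log2 scale it changed by -0.93 with an SE of 0.14, at an adjusted p of 1.17e-04 (limma with Benjamini-Hochberg adjustment). An exact permutation test, two-sided over the 924 ways to divide the samples into groups of 6, gave p = 0.00216, the smallest it can give.

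Nr4a3 (NOR1), the NR4A receptor that does not pair with RXR, lies on chromosome 5 (68298772 to 68338610, Rn5). Its FPKM was 0.343, 0.252, 0.453, 0.149, 0.363, and 0.413 in Ad-GFP samples and 0.318, 0.251, 0.340, 0.249, 0.311, and 0.257 in Ad-h-NR4A2 samples, in sample order. The Ad-h-NR4A2 values all fell inside the range of the Ad-GFP values, and pair 27, with the lowest Ad-GFP value, was the one that went up. The mean was 0.329 in Ad-GFP and 0.288 ± 0.0400 FPKM (SD, n = 6) in Ad-h-NR4A2 samples. The log2 fold change of -0.10 (SE 0.18, 95% interval -0.49 to 0.29) did not pass (adjusted p = 0.680, limma with Benjamini-Hochberg adjustment, exact permutation p = 0.615). At 16 to 49 fragments per sample, changes within this interval cannot be told apart from none. Nr4a1 and Nr4a3 together had 4.12 ± 0.763 FPKM in Ad-GFP and 2.22 ± 0.299 FPKM (SD, n = 6) in Ad-h-NR4A2 samples, against a summed NR4A level of 527 ± 70.2 FPKM in the latter.

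**Figure D1:**
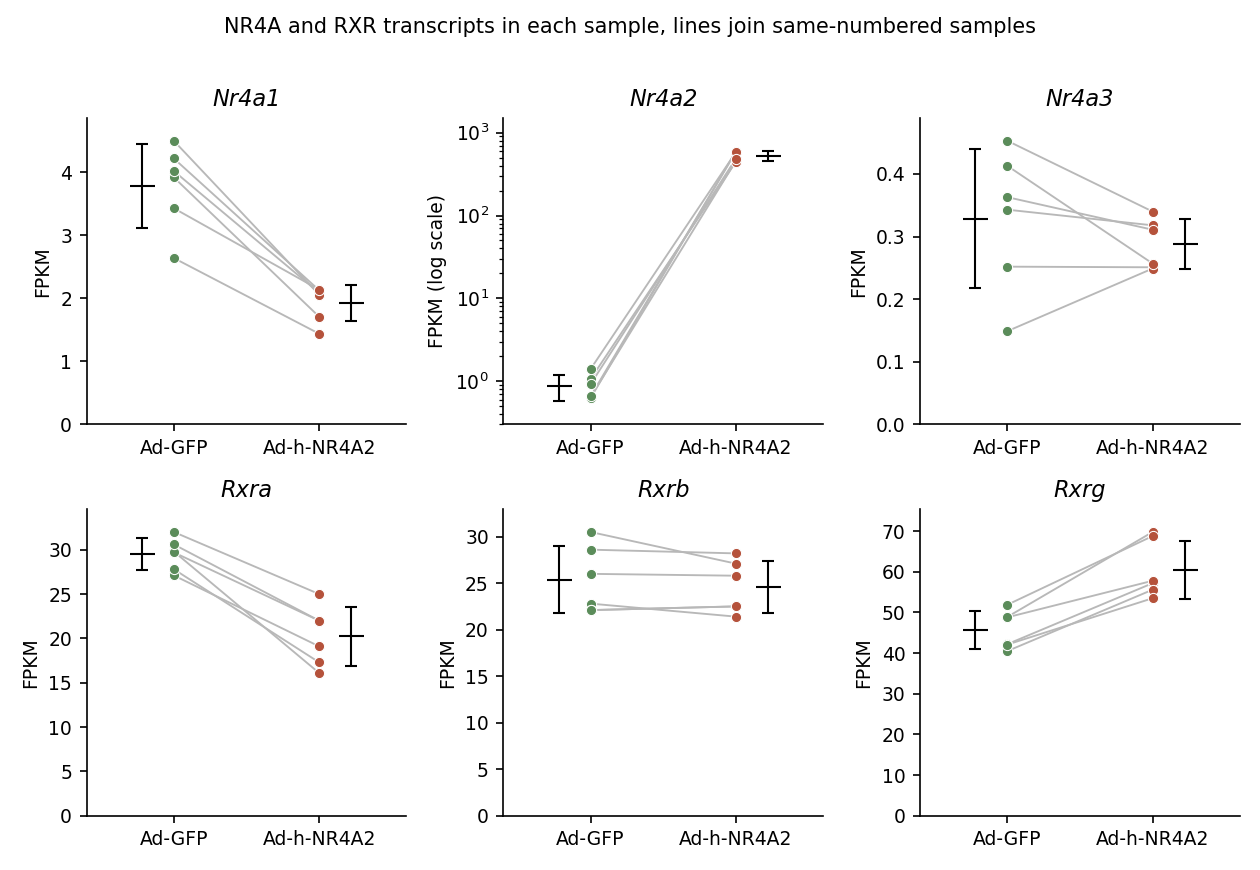
FPKM of the 6 members in Ad-GFP and Ad-h-NR4A2 samples, 1 point per sample, gray lines joining samples of the same number, and black bars giving mean and SD of 6 samples; the axis of Nr4a2 is logarithmic and the others start at 0. Lines of Nr4a1 and Rxra go down in 6 of 6 pairs, those of Nr4a2 and Rxrg go up in 6 of 6, and those of Nr4a3 (5 down) and Rxrb (4 down) go both ways.

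Among the RXR genes, Rxra and Rxrg moved in opposite directions. Rxra lies on chromosome 3 (11570637 to 11653959, Rn5), and its FPKM in sample order was 32.0, 29.8, 29.7, 27.1, 30.6, and 27.8 in Ad-GFP and 25, 16.1, 22, 19.1, 22, and 17.3 in Ad-h-NR4A2 samples. The Ad-GFP values lay close together, the Ad-h-NR4A2 values were spread more widely with sample 24 highest and sample 25 lowest, and the groups did not overlap. The mean went from 29.5 to 20.2 ± 3.34 FPKM (SD, n = 6), a ratio of 0.686, with ratios within pairs from 0.541 to 0.782. This was -0.56 on the log2 scale, with an SE of 0.10 and an adjusted p of 4.11e-04 (limma with Benjamini-Hochberg adjustment, exact permutation p = 0.00216), lower in 6 of 6 pairs. The ratio stayed inside the limit of 1.5-fold used below, except without Ad-h-NR4A2 sample 24, where it was 0.654.

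Rxrg lies on chromosome 13 (90460380 to 90511041, Rn5). Its FPKM in sample order was 48.9, 51.9, 42.2, 48.8, 40.5, and 42.1 in Ad-GFP and 69.8, 68.8, 57.2, 57.8, 55.6, and 53.5 in Ad-h-NR4A2 samples. Samples 24, 25, and 27 were the 3 highest of both groups, and the lowest Ad-h-NR4A2 value was above the highest Ad-GFP value. The mean went from 45.7 to 60.5 ± 7.03 FPKM (SD, n = 6), a ratio of 1.32, with 1.18 to 1.43 within pairs. This was 0.40 on the log2 scale, with an SE of 0.08 and an adjusted p of 0.00164 (limma with Benjamini-Hochberg adjustment, exact permutation p = 0.00216), higher in 6 of 6 pairs.

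Rxrb lies on chromosome 20 (5902519 to 5908467, Rn5). Its FPKM in sample order was 30.5, 22.8, 26, 22.1, 28.6, and 22.1 in Ad-GFP and 27.1, 21.4, 25.8, 22.5, 28.2, and 22.5 in Ad-h-NR4A2 samples. Samples 24, 26, and 28 were the higher ones in both groups, so that the spread among numbers exceeded the difference between groups, which overlapped almost fully. The mean was 25.3 and 24.6 ± 2.83 FPKM (SD, n = 6). The log2 fold change of -0.04 (SE 0.10, 95% interval -0.25 to 0.17) did not pass (adjusted p = 0.782, limma with Benjamini-Hochberg adjustment, exact permutation p = 0.706), and it lay between -0.08 and 0.02 over all settings and samples left out.

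Together these values shifted the composition of the RXR pool more than its size. Summed RXR FPKM was 101 ± 6.62 in Ad-GFP and 105 ± 9.53 in Ad-h-NR4A2 samples (SD, n = 6), with ranges that overlapped (92.0 to 111 and 93.3 to 122 FPKM). In every same-numbered pair the sum was higher with Ad-h-NR4A2, though this was not tested. Rxrg made up 45.5 ± 3.68% of this sum in Ad-GFP and 57.4 ± 4.16% in Ad-h-NR4A2 samples, Rxra 29.4 ± 1.21% and 19.2 ± 2.19%, and Rxrb 25.1 ± 2.79% and 23.4 ± 2.27% (SD, n = 6). The shares of Rxrg (40.7% to 49.8% and 52.5% to 64.7%) and of Rxra (27.7% to 30.7% and 15.2% to 20.9%) did not overlap between groups. The ratio of Rxrg to Rxra went from 1.55 ± 0.183 to 3.05 ± 0.637 (SD, n = 6), and its highest value, 4.27, belonged to Ad-h-NR4A2 sample 25. These shares are descriptions and were not tested. Summed NR4A FPKM was 0.05 ± 0.0105 of summed RXR FPKM in Ad-GFP and 5.05 ± 0.876 of it in Ad-h-NR4A2 samples (SD, n = 6), so that the RXR genes exceeded the NR4A genes in the former and not in the latter. Nr4a2 made up 99.6% of the NR4A sum in Ad-h-NR4A2 samples. Its transgene fragments count only where they align to the rat transcript, and they are scaled to the length of that transcript. The ratio in these samples is therefore not one of true RNA amounts. These are levels of RNA, and protein was not measured here.

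**Figure D2:**
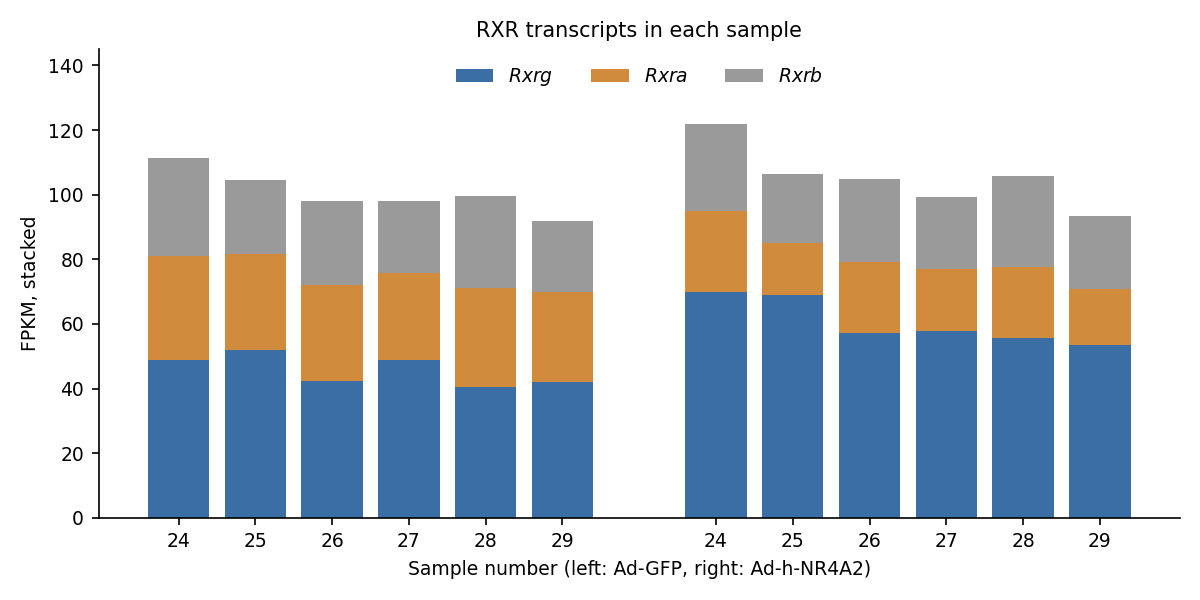
Stacked FPKM of Rxrg, Rxra, and Rxrb in each of the 12 samples, by sample number, with Ad-GFP samples on the left and Ad-h-NR4A2 samples on the right. The height ranges from 92.0 to 122 FPKM, and the Rxrg part takes 40.7% to 49.8% of it on the left and 52.5% to 64.7% on the right.

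All 6 members were above 0 in all samples and thus among the 10950 genes tested. A gene passed at an adjusted p below 0.05 and was called differentially expressed if, in addition, group means differed at least 1.5-fold. Of the 6 members, 4 passed, with Nr4a2 and Rxrg higher and Nr4a1 and Rxra lower, next to 40.9% of all genes tested (19.3% higher and 21.7% lower). Differentially expressed were 2 of the 6, Nr4a2 (up) and Nr4a1 (down), next to 15.2% of all genes (7.94% up and 7.24% down). Both counts include Nr4a2, which corresponds to the transduced gene, so that its rise was fixed by the design. Apart from it, Nr4a1, Rxra, and Rxrg passed, and only Nr4a1 was differentially expressed. The median log2 fold change over all genes tested was -0.02. When sample numbers entered the model as replicate blocks, 936 genes were up and 889 were down, and 59.4% of all genes passed. Of the members, the same 4 passed, at adjusted p from 2.43e-09 (Nr4a2) to 7.32e-05 (Rxra), while Nr4a3 (0.546) and Rxrb (0.377) did not (limma with Benjamini-Hochberg adjustment). That Nr4a1 passed and Nr4a3 did not is no test of a difference between them, which was not made.

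The receptors that share RXR as a partner were listed next. Of 14 such genes, 11 were tested, and Nr1h4, Nr1i2, and Nr1i3, receptors known from liver, were listed at 0 in some samples. Of these, Nr1i2 had 0.118 FPKM in Ad-GFP and 0.0464 FPKM in Ad-h-NR4A2 samples, from 4 to 8 and 0 to 4 fragments, lower in 6 of 6 pairs. Of the 11, 1 rose and 7 fell, 3 did not pass, and the median log2 fold change was -0.45. Of all genes tested, 19.3% rose and 21.7% fell, and whether any of the lists differed from other genes was not tested. The gene that rose was Rarb, a retinoic acid receptor that is itself a known target of retinoic acid, from 4.64 ± 0.907 to 18.1 ± 3.49 FPKM (SD, n = 6). Its values ranged from 3.16 over a median of 4.68 to 5.70 in Ad-GFP and from 13.6 over 18.4 to 23.5 in Ad-h-NR4A2 samples, and the groups lay apart. The change was 1.95 on the log2 scale (SE 0.15), at an adjusted p of 3.67e-07 (limma with Benjamini-Hochberg adjustment), higher in 6 of 6 pairs.

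The genes that fell were the retinoic acid receptors Rara and Rarg, all 3 peroxisome proliferator-activated receptors, which control fatty acid use (Ppara, Ppard, and Pparg), the thyroid hormone receptor Thra, and the vitamin D receptor Vdr. Ppara, the most prominent regulator of fatty acid oxidation in heart, went from 15.1 ± 1.31 to 10.2 ± 1.79 FPKM (SD, n = 6), with a log2 fold change of -0.58 (SE 0.11). Thra went from 16.1 to 11.1 FPKM, with Ad-h-NR4A2 sample 24 far above the others, and Ppard from 20.3 to 16.3 FPKM. Rara went from 8.49 to 6.21 FPKM and Pparg from 2.44 to 1.71 FPKM. Vdr and Rarg were low, at 0.410 and 2.02 FPKM in Ad-GFP and 0.219 and 1.35 FPKM in Ad-h-NR4A2 samples, and together with Rarb they were the differentially expressed genes of the list. The 1.5-fold limit was also reached by Ppara without Ad-GFP sample 29 or Ad-h-NR4A2 sample 24 or 28 (ratios of means 0.639 to 0.654), by Thra without Ad-GFP sample 28 or Ad-h-NR4A2 sample 24 (0.645 to 0.656), and by Pparg without Ad-h-NR4A2 sample 28 (0.665). With both samples of number 28 left out, Ppara and Thra reached it, Ppara also did so on a TPM scale, and with transcripts of a gene summed Thra reached it and Rarg no longer did. Rarg no longer passed without Ad-GFP sample 24, 25, 27, or 29 or Ad-h-NR4A2 sample 26, 27, 28, or 29 (adjusted p 0.0508 to 0.0710, limma with Benjamini-Hochberg adjustment). The most abundant partner, the liver X receptor Nr1h2, had 53.8 ± 4.33 FPKM in Ad-GFP and 52.6 ± 4.25 FPKM in Ad-h-NR4A2 samples (SD, n = 6) and did not pass. Nor did Thrb, at 21.3 and 18.6 FPKM and lower in 6 of 6 pairs, which passed without Ad-h-NR4A2 sample 24 (adjusted p = 0.00996), and Nr1h3, at 5.22 and 6.76 FPKM and higher in 6 of 6 pairs, which passed without Ad-GFP sample 28 (adjusted p = 0.0294) or Ad-h-NR4A2 sample 29 (adjusted p = 0.0403, limma with Benjamini-Hochberg adjustment). With replicate blocks, both passed (limma with Benjamini-Hochberg adjustment, adjusted p = 0.00451 for Thrb, up to 0.224 over all settings, and 4.80e-04 for Nr1h3, up to 0.184).

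Genes that make, store, and carry retinoids were mostly at low levels in ARVMs. Of 14, 8 were tested, and 6 were listed at 0 in some samples (Rbp7, Crabp1, Cyp26a1, Cyp26b1, and Bco1) or in all (Stra6, the receptor for retinol-binding protein). Of the 8 tested, 3 rose and 2 fell (62.5%, next to 40.9% of all genes), and the median log2 fold change was -0.09. Aldh1a2, which makes retinoic acid, rose from 0.839 ± 0.223 to 3.24 ± 0.612 FPKM (SD, n = 6), with 26 to 61 and 129 to 211 fragments per sample and Ad-h-NR4A2 sample 29 far above the others. The change was 1.85 on the log2 scale (SE 0.17), at an adjusted p of 1.88e-06 (limma with Benjamini-Hochberg adjustment), higher in 6 of 6 pairs. Lrat, which stores retinol as esters, rose from 0.0362 to 0.276 FPKM (1 to 6 and 16 to 52 fragments), and Rbp4, the carrier of retinol in blood, rose from 0.403 to 0.943 FPKM (2 to 14 and 10 to 26 fragments), so that the counting error of both is large. Rdh10, which oxidizes retinol, fell from 6.46 to 4.89 FPKM, and Dhrs3, which reduces retinal, fell from 2.95 to 1.74 FPKM, although it no longer passed with both samples of number 28 left out (adjusted p = 0.0663, limma with Benjamini-Hochberg adjustment), a choice made after seeing the data. Not past the threshold were Crabp2, at 0.283 and 0.256 FPKM, and Aldh1a3, at 0.0970 and 0.0864 FPKM. The most abundant gene of the list, Aldh1a1, had 23.7 ± 7.47 FPKM in Ad-GFP and 19.1 ± 7.38 FPKM in Ad-h-NR4A2 samples (SD, n = 6) and was lower in 6 of 6 pairs. It passed with replicate blocks (adjusted p = 4.51e-04) and not without (adjusted p = 0.327, up to 0.601 over all settings, limma with Benjamini-Hochberg adjustment).

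**Figure D3:**
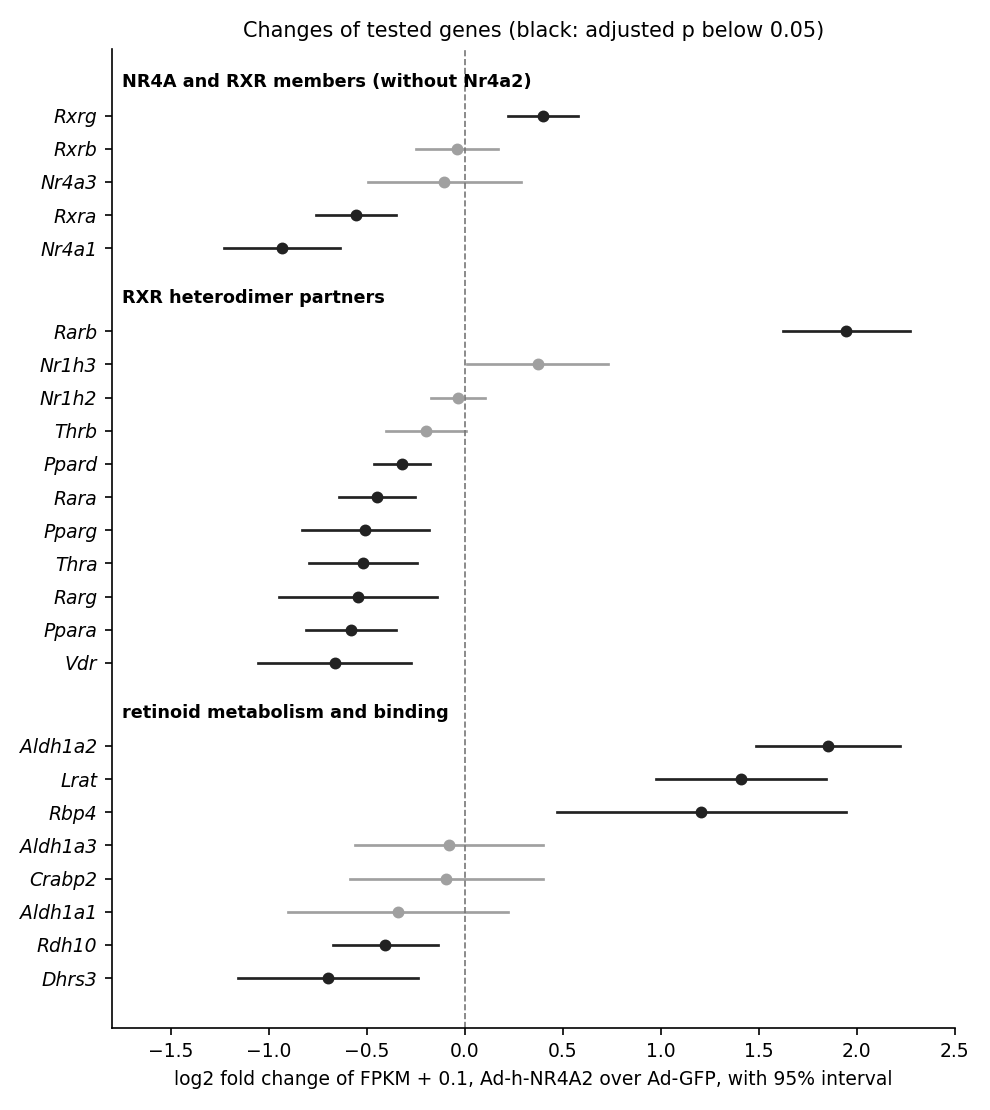
Log2 fold changes of FPKM + 0.1 (Ad-h-NR4A2 over Ad-GFP, 6 samples each) with 95% intervals from limma for 5 members, the 11 tested RXR heterodimer partners, and the 8 tested retinoid genes, in black where the adjusted p is below 0.05. Nr4a2, at 9.10, is left out for scale; Rarb (1.95) and Aldh1a2 (1.85) lie farthest to the right.

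Coregulators carry the effect of nuclear receptors on transcription. Of 20 listed genes, 18 were tested, and Ncoa3 and Ep300 had no value. Of the 18, 3 rose and 5 fell, with a median log2 fold change of -0.19. This was 44.4% that passed and 16.7% differentially expressed, next to 40.9% and 15.2% of all genes. Nrip1, a corepressor of nuclear receptors also called RIP140, rose from 5.96 ± 0.321 to 18.4 ± 1.67 FPKM (SD, n = 6), and the coactivator Ppargc1b rose from 5.43 to 9.99 FPKM. Tbl1xr1 rose by less, from 11.2 to 13.4 FPKM. Rcor2, related to the corepressor CoREST that acts with Nr4a2 in glia, went from 27.7 ± 1.5 to 7.35 ± 1.20 FPKM (SD, n = 6), or -1.91 on the log2 scale (SE 0.09), at an adjusted p of 5.54e-09 (limma with Benjamini-Hochberg adjustment), lower in 6 of 6 pairs. Kdm1a, the demethylase bound by CoREST proteins, went from 52.2 to 35.7 FPKM, Hdac3 from 29.6 to 25.3 FPKM, Ncoa1 from 11.4 to 9.31 FPKM, and Med1 from 24.2 to 21.2 FPKM. Kdm1a no longer passed without Ad-GFP sample 24 or 28 or Ad-h-NR4A2 sample 27 (adjusted p 0.0533 to 0.0553, limma with Benjamini-Hochberg adjustment), and it reached the 1.5-fold limit without Ad-GFP sample 27 or Ad-h-NR4A2 sample 24 or 28 (ratios of means 0.633 to 0.661). Med1 passed narrowly (adjusted p = 0.0498) and no longer did without any single sample other than Ad-GFP sample 29 and Ad-h-NR4A2 sample 24 (adjusted p 0.0527 to 0.109, limma with Benjamini-Hochberg adjustment). The most abundant gene, Sfpq, had 55.9 and 59.9 FPKM and passed only with replicate blocks.

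Factors that carry cAMP and calcium signals to NR4A promoters were examined next. Of 15, 12 were tested (Crtc3, Mef2c, and Hdac7 had no value). Of these, 5 fell and 0 rose, so that 41.7% passed, next to 40.9% of all genes, and the median log2 fold change was -0.28. Hdac5, a histone deacetylase that holds MEF2 factors back, fell from 37.7 ± 2.88 to 24.6 ± 2.90 FPKM (SD, n = 6), or -0.62 on the log2 scale (SE 0.08), at an adjusted p of 2.80e-05 (limma with Benjamini-Hochberg adjustment), lower in 6 of 6 pairs. It was the differentially expressed gene of the list, and without Ad-h-NR4A2 sample 25 its ratio of means, 0.671, was inside the 1.5-fold limit. Mef2a, the most abundant of the list in Ad-GFP samples but not in Ad-h-NR4A2 samples, fell from 49.8 to 38.8 FPKM. Mef2d fell from 41.7 to 31.8 FPKM, Nfatc2 from 2.53 to 1.79 FPKM, and the CREB coactivator Crtc2 from 13.5 to 11.5 FPKM. Crtc2 no longer passed without Ad-GFP sample 24, 26, 28, or 29 or Ad-h-NR4A2 sample 25, 26, 27, or 29 (adjusted p 0.0518 to 0.0780, limma with Benjamini-Hochberg adjustment).

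Known NR4A targets were taken as 2 lists. Of 18 targets in muscle metabolism, all were tested, 8 rose, 5 fell (72.2%, next to 40.9% of all genes), and the median log2 fold change was 0.15. Eno3, the muscle enolase of glycolysis, rose from 120 ± 37.0 to 1334 ± 281 FPKM (SD, n = 6), with 75.4 to 166 FPKM in Ad-GFP and at least 1029 FPKM in every Ad-h-NR4A2 sample. The change was 3.50 on the log2 scale (SE 0.20), at an adjusted p of 2.04e-08 (limma with Benjamini-Hochberg adjustment), higher in 6 of 6 pairs. The mitochondrial carriers Ucp3 and Ucp2 rose from 1.44 to 5.16 FPKM and from 87.7 to 207 FPKM, and the glucose transporter Slc2a4 rose from 92.7 to 128 FPKM. Of the others that rose, Phkg1 had 2.77 and 5.85 FPKM, Lpin1 37.8 and 65.7 FPKM, Pfkm 277 and 416 FPKM, and Pgam2 363 and 457 FPKM. Pfkm was inside the 1.5-fold limit without Ad-GFP sample 26, 28, or 29 or Ad-h-NR4A2 sample 24, 25, or 26 (ratio of means at least 1.42), and also on a TPM scale, with quantile normalization, and with both samples of number 28 left out. Slc2a4 no longer passed without Ad-GFP sample 26 or 29 or Ad-h-NR4A2 sample 24 or 25 (adjusted p 0.0527 to 0.0583, limma with Benjamini-Hochberg adjustment). Lower were Prkag3, a subunit of AMP-activated kinase, from 1.87 to 0.625 FPKM, and Ampd3, Acacb, Pygm, and Phka1. Phka1 no longer passed without Ad-GFP sample 28 or Ad-h-NR4A2 sample 24, 25, 26, or 27 (adjusted p 0.0508 to 0.0601, limma with Benjamini-Hochberg adjustment).

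The other list held 15 targets known from neurons and endocrine cells, of which 14 had values and 8 were tested. The dopamine neuron genes Th and Slc6a3 were listed at 0 in some samples, as were Vip, Crh, and Cyp17a1. Slc18a2, which loads dopamine into vesicles, was at 0 in 5 of 6 Ad-GFP samples and had 0.0133 FPKM (1 fragment) in Ad-GFP sample 28. It was at 0 in 0 of 6 Ad-h-NR4A2 samples, where it had 0.0141 to 0.190 FPKM (1 to 12 fragments). Its FPKM was higher in 6 of 6 pairs, but in pair 28 each sample rested on 1 fragment, which is no difference in fragments. Of the 8, 3 rose and 2 fell (62.5%, next to 40.9% of all genes), with a median log2 fold change of 0.11. Spp1 (osteopontin) rose from 7.23 to 659 FPKM and was the most abundant of the list in Ad-h-NR4A2 samples. In Ad-GFP samples the most abundant was Aldh1a1, with 23.7 FPKM, which is also in the retinoid list. Gfra1, a receptor subunit for glial cell line-derived neurotrophic factor, rose from 0.147 to 4.36 FPKM, and Bdnf rose from 6.56 to 8.21 FPKM. Star, which moves cholesterol into mitochondria, fell from 2.04 ± 1.10 to 0.420 ± 0.148 FPKM (SD, n = 6), with Ad-GFP sample 29 far above the others of its group. Ddc fell from 4.10 to 3.54 FPKM and no longer passed without Ad-GFP sample 25, 26, 27, or 28 or Ad-h-NR4A2 sample 24 or 28 (adjusted p 0.0585 to 0.0682, limma with Benjamini-Hochberg adjustment).

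The genes whose pattern was most like that of each member were sought among 8978 genes tested with a mean of at least 1 FPKM, by Pearson's r of log2(FPKM + 0.1) over 12 samples. These samples include both groups, so that r holds the group difference. Most like Nr4a1 were Pfkfb3 (r = 0.966), Incenp (0.959), and Cops3 (0.956), most like Rxra were Dyrk1a (0.989), Tob2 (0.981), and Entpd6 (0.978), and most like Rxrg were Pgam2 (0.955), Zdhhc16 (0.938), and Wwp1 (0.938). For Nr4a2, where the groups form separate clusters, they were Usp28, Plcl1, and Il27ra, all 3 of them at least 0.995. For the members that did not pass, Nr4a3 was most like Vps52 (0.877), Elof1 (0.873), and Cnih4 (0.870), and Rxrb most like Irgq (0.973), Slc11a1 (0.955), and Gpn2 (0.945).

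With group means subtracted, which leaves the spread within groups, the genes most like Nr4a1 were Cdr2 (r = 0.922), Gnl3, and Cited1, those most like Nr4a2 were Rln3 (0.897), Wasf1, and Nfkbie, and those most like Rxrg were Isca1 (0.942), Myl7, and Pycard, over 12 samples. The deviations of Nr4a2 include transgene fragments in Ad-h-NR4A2 samples only. Ad-GFP sample 28 was the highest of its group for both Nr4a2 (1.40 FPKM) and Rln3 (9.18 FPKM, others 0.147 to 2.19). Nr4a3 kept Elof1 (0.887) after Atf6b (0.911) and Rrp9 (0.909). Rxra kept Dyrk1a (0.958) and Tob2 (0.950), followed by Nfix (0.949), and Rxrb kept Irgq (0.976) and Slc11a1 (0.969), followed by Pex26 (0.958). Dyrk1a, a protein kinase, had a log2 fold change of -0.53, close to the -0.56 of Rxra. These values are descriptions, from samples that were more alike where they had the same number.

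The genes next to the members on Rn5 were examined for changes in the same direction. Next to Nr4a1, Atg101, 9.2 kb away, had a change of -0.10 on the log2 scale and did not pass (limma with Benjamini-Hochberg adjustment, adjusted p = 0.343). LOC103692984 on the other side was listed at 0 in all Ad-GFP samples. Rxra lies between Wdr5 (0.00) and Col5a1 (-0.42), neither of which passed, although Col5a1 did with replicate blocks or quantile normalization. Rxrb lies 400 bp from Slc39a7, a zinc transporter gene that rose (0.35, adjusted p = 0.0185, limma with Benjamini-Hochberg adjustment, with Ad-h-NR4A2 sample 27 far above the others), and 1028 bp from Col11a2, which passed only with replicate blocks (0.46). Next to Nr4a2, Gpd2 at 106 kb fell (-0.67, limma with Benjamini-Hochberg adjustment, adjusted p = 1.83e-05), and Kcnj3 (-0.33) at 1919 kb passed only with replicate blocks. Next to Nr4a3, Sec61b at 579 kb rose (0.81, limma with Benjamini-Hochberg adjustment, adjusted p = 3.76e-06) and Stx17 at 44.8 kb fell by 0.22, no longer past the threshold without Ad-GFP sample 24, 26, or 27 or Ad-h-NR4A2 sample 28 or 29 (adjusted p 0.0526 to 0.0574). Next to Rxrg, Lrrc52 had 0.0238 FPKM in Ad-GFP and 0.622 FPKM in Ad-h-NR4A2 samples and Lmx1a was listed at 0 in all Ad-GFP samples, and neither was tested since both were at 0 in some samples.

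Promoter sequences of 5 of the 6 members were taken from RefSeq on the newer build GRCr8, each with 250 bases before and 50 bases after the start of the gene. Nr4a3 had no entry in the set used here, and its promoter was not searched. They were searched on both strands for the cAMP response element TGACGTCA, found in 1.83% of 33469 promoters of that length, and for its core TGACG, found in 21.2%, which also lies within the element. The NR4A monomer element AAAGGTCA (1.43% of promoters) and the receptor core AGGTCA contained in it (16.2%) were searched as well. The cAMP response element core occurred 4 times in the Nr4a1 promoter, beginning at -246, -226, -82, and -53 relative to the start, 1 time in that of Nr4a2 (-8), and 1 time in that of Rxrb (-4). The windows of Rxra and Rxrg had no such core, and none of the 5 windows had any of the 3 other motifs. The promoters of the 4 members that passed the test are shown so that the NR4A and RXR starts can be compared, in lower case with the core TGACG or its complement CGTCA in capitals. Their positions are chr7:134259888-134260187 (plus strand) for Nr4a1, chr3:62104838-62105137 (minus) for Nr4a2, chr3:31387642-31387941 (plus) for Rxra, and chr13:82276237-82276536 (plus) for Rxrg.
Nr4a1: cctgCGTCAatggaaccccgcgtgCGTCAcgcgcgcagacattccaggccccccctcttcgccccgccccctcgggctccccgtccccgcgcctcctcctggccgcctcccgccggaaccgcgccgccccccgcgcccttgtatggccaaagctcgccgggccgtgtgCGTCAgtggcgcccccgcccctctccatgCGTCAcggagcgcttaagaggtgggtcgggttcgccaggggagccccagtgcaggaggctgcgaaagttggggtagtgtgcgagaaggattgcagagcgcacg
Nr4a2: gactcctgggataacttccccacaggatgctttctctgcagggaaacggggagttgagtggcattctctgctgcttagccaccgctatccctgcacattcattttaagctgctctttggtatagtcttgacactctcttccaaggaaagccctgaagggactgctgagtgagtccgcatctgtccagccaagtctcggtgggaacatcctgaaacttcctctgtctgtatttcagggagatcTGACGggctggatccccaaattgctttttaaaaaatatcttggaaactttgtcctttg
Rxra: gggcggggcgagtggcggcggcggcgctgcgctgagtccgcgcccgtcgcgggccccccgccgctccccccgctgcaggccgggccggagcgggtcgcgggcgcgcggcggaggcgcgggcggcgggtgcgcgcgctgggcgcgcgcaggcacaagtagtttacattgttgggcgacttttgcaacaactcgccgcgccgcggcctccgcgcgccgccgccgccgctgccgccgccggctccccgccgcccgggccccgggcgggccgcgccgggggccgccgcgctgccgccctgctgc
Rxrg: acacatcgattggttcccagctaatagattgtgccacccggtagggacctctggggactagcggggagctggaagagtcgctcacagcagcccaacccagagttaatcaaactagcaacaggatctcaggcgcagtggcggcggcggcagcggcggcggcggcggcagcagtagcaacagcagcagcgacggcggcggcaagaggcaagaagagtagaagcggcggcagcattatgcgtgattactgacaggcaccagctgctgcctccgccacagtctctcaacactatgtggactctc
The share of G and C was 72.3% for Nr4a1, 48.7% for Nr4a2, 84.7% for Rxra, and 60.7% for Rxrg. A match gives only the letters, and binding was not measured.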

How the data were processed

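RNA of 12 ARVM samples (6 Ad-GFP and 6 Ad-h-NR4A2) had been sequenced in pairs of reads. The deposited values are FPKM per RefSeq transcript, which the authors had obtained with the aligner STAR on rat build Rn5 and with Cufflinks, 1 table per sample. Where a gene had several transcripts, the most abundant on average stood for it. Log2(FPKM + 0.1) of the 10950 genes above 0 in all samples was fitted by group with limma (3.58.1, trend, R 4.3.3), and p-values were adjusted after Benjamini and Hochberg over these genes. The groups were compared without pairing because the study compared them so. Each member was also tested by exact permutation of the samples into groups of 6. Intervals are 95% intervals from limma. The model fit was tested on simulated data with independent samples and large changes in few genes. Small changes and the likeness of same-numbered samples were not simulated. Summaries used pandas 2.3.3 and NumPy 2.4.6 under Python 3.11.15, and figures used Matplotlib 3.10.9.

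Depth was recovered from the steps between values of up to 6 fragments on transcripts of at least 800 nt, and 99.2% to 99.9% of such values in each sample were whole fragments within 0.05. Genes with several transcripts or shorter ones have no fragment numbers. Pairing by the number in the sample titles was checked by the correlation of deviations from the group means.

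Named are the 6 members, up to 3 differentially expressed genes with the greatest rise and 3 with the greatest fall of each list, its most abundant gene, the 3 genes most like each member by r with and without the group means, the nearest listed gene on each side, and all cell type markers. Beyond this rule, the other genes of the RXR partner and retinoid lists and genes of the other 4 lists that passed the test are named, chosen after their values were seen. A gene of the retinoid list is not reported here, and the counts of that list are without it. Members and lists were chosen with earlier results of these data known. Alternatives fixed at the start were a pseudocount of 1 or of 0.01, low values left unfiltered, only genes with a mean of at least 1 FPKM, a TPM scale, quantile normalization, summed transcripts, limma without trend, replicate blocks, and leaving out each sample. Leaving out both samples of number 28, and lists without the fold limit, were added after seeing the data. Promoters came from RefSeq on GRCr8.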

Additional observations from a re-analysis of the deposited data

Results flagged for a closer look

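Of 262 groups of 6 values of a named gene, 18 had a highest or lowest sample that lay far from the other 5 by the 95% limit of Dixon's test, which by its construction is passed by chance in about 1 in 20 groups. No NR4A or RXR gene was among them. In Ad-GFP samples, the highest were Acta2 in sample 24 with 12.7 FPKM (others 1.76 to 4.9), Rgs5 in sample 25 with 7.85 (2.29 to 4.33), Phka1 in sample 28 with 22.6 (18.6 to 20), Rln3 in sample 28 with 9.18 (0.147 to 2.19), Ampd3 in sample 29 with 131 (95.6 to 104), and Star in sample 29 with 4.21 (1.11 to 1.88). The lowest were Rara in sample 25 with 7.06 FPKM (8.45 to 9.24), Gnl3 in sample 27 with 42.2 (55 to 61.6), and Myh6 in sample 28 with 953 (1137 to 1229). In Ad-h-NR4A2 samples, the highest were Acta2 in sample 24 with 11 FPKM (1.82 to 5.06), Pln in sample 24 with 1249 (659 to 876), Thra in sample 24 with 13.7 (9.7 to 11), Thrb in sample 24 with 24 (15.7 to 18.5), Lmx1a in sample 26 with 0.08 (0 to 0.0282), Slc39a7 in sample 27 with 56.9 (40.1 to 45), Aldh1a2 in sample 29 with 4.41 (2.65 to 3.26), and Aldh1a3 in sample 29 with 0.202 (0.0359 to 0.0851). The lowest was Vps52 in sample 25 with 35.1 FPKM (37.1 to 38.3). Acta2 was high in both samples of number 24.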

How the results depend on the processing

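The direction of the members that passed and the side of the threshold of all 6 were the same in 131 of 131 alternative values. Over all settings, the log2 fold change was -1.03 to -0.70 for Nr4a1, 8.13 to 9.25 for Nr4a2, -0.25 to -0.02 for Nr4a3 (absent at a mean of at least 1 FPKM), -0.62 to -0.49 for Rxra, -0.08 to 0.02 for Rxrb, and 0.36 to 0.44 for Rxrg. Of 2624 alternative values of other named genes, 2525 were on the same side of the threshold, 75 no longer passed, 24 newly passed, and 0 reversed. Counts of differentially expressed genes in lists moved more. RXR partners had 3, which became 6 with both samples of number 28 left out and 2 to 5 with each sample left out (5 without Ad-h-NR4A2 sample 24 or 28). Without Ad-h-NR4A2 sample 28, where Nr1i2 was at 0, that gene was tested as well and is 1 of the 6 and of the 5. The count was 4 on a TPM scale and without a filter on low values, and 2 at a mean of at least 1 FPKM. Retinoid genes had 4, and 2 at a mean of at least 1 FPKM, where fewer genes are tested, 3 with both samples of number 28 left out (without Dhrs3), and 5 without a filter on low values (with Bco1). Without that filter, Slc18a2 joined the neuron and endocrine targets. The cAMP and calcium regulators had 1, and 0 to 1 with each sample left out (0 without Ad-h-NR4A2 sample 25). Without the fold limit, which adds genes by construction, the lists had 8 RXR partners, 8 coregulators (3 with it), 5 cAMP and calcium regulators, 5 neuron and endocrine targets (3), and 13 muscle targets (7). Other causes were not tested. Among the members, Nr4a3 had the fewest fragments in Ad-GFP samples, with 16 to 49 per sample, and 23 to 35 in Ad-h-NR4A2 samples. Other tested genes had fewer, such as Aldh1a3 with 1 to 7 and 1 to 6, Lrat with 1 to 6 and 16 to 52, Rbp4 with 2 to 14 and 10 to 26, and Vdr with 10 to 29 and 7 to 14, and at such numbers the counting error limits what can be seen.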
